A study of Caenorhabditis elegans with 12 samples.

Results

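The genome of Caenorhabditis elegans holds a large family of genes whose products resemble Hedgehog, the secreted signal that patterns many animal embryos, and its receptor Patched. The members described here are all genes of the deposited tables whose WBcel235 symbol starts with grd-, grl-, wrt-, qua-, ptc- or ptr-, which were 84 of 46904 gene IDs. Of these, 58 encode ligand-like proteins, namely 16 Ground (grd), 31 Ground-like (grl), 10 Warthog (wrt) and 1 Quahog (qua) gene. The other 26 encode receptor-like proteins, namely 2 Patched homologues (ptc-1 and ptc-3) and 24 Patched-related (ptr) genes.

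The worm has no clear orthologue of Hedgehog or of Smoothened, the transducer on which Patched acts in flies and vertebrates. The ligand-like proteins carry a signal sequence and a Ground, Ground-like, Warthog or Quahog domain, and some of them end in the self-cleaving Hog domain that Hedgehog itself uses. The receptor-like proteins span the membrane many times and share a sterol-sensing domain with Patched, Dispatched and the cholesterol transporter NPC1. In worms both sides of the family are best known from the epidermis and from glia and other cells that line openings, where many members are needed for molting, for the apical matrix that comes before the cuticle, or for trafficking, while ptc-1 is needed for cytokinesis in the germ line.

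Paired-end mRNA libraries of whole day 1 adults were sequenced for 4 genotypes, with 3 biological repeats each. These were the wild type N2, daf-2(e1370) (strain CF1041), pfd-6(gk493446) (strain IJ462) and the double mutant pfd-6(gk493446); daf-2(e1370) (strain IJ485). DAF-2 is the insulin/IGF-1 receptor, whose reduced function lengthens life through the FOXO factor DAF-16, and PFD-6 is a subunit of prefoldin, a cochaperone that hands unfolded tubulin and actin to the chaperonin TRiC. The series asks what PFD-6 contributes to the long-lived state of daf-2 mutants, and each mutant was compared here with the wild type and the double mutant with each single mutant. All worms were raised to the L4 stage on bacteria carrying a control RNAi and then moved to plates with FUdR, which blocks the growth of progeny, so every group carries that treatment. The growth protocol names both control and pfd-6 RNAi plates for the adult stage, and the series' design text speaks of hsf-1 RNAi in daf-2 mutants. No label says which bacteria a given library had, and the libraries are grouped by genotype alone. Each mutant genotype is represented by 1 strain.

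The libraries held 19394046 to 41009125 expected counts, and the 84 members together took 0.0857% to 0.227% of them. The pfd-6 transcript stood at 9.0 to 21.3 CPM (counts scaled to a common library size) in the libraries of the pfd-6 mutant and at 14.4 to 16.9 CPM in those of the double mutant, against 66.4 to 158 CPM in the other 6. A pair of libraries stood apart, since genes of ribosomal proteins made up 1.41% of the third daf-2 library and 0.609% of the third pfd-6 library, against 9.33% to 15.9% elsewhere. The same pair was low in the sum of 18 markers of epidermis and cuticle. It was 696 and 559 CPM there and 4628 to 10520 CPM in the other libraries. Most of that sum came from the collagens col-19, col-140 and col-119, with N2 means of 1324, 2434 and 3425 CPM. Not every marker in the list was low: lin-26 had means of 122.3 CPM in N2, 127.0 CPM in daf-2 and 121.9 CPM in pfd-6. Counts of called members in several comparisons are given below with and without these libraries, while most other values include them.

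A member was tested where it reached about 0.332 CPM in at least 3 libraries, with enough counts in total. This left 57 of the 84 members, of which 33 were above that level in all 12 libraries. Among the ligand-like genes 32 of 58 were tested (9 grd, 13 grl, 9 wrt and qua-1), and among the receptor-like genes 25 of 26 (23 ptr, ptc-1 and ptc-3). The other 27 members never exceeded 33 counts in a library, and every member had at least 1 count in some library. The least covered were grl-24, grl-28 and grl-29, each with 3 counts over all 12 libraries, and the best covered of the untested genes was grl-5, with 88. The genes grd-6, grl-21, grl-27, wrt-2 and wrt-4 passed the filter only through their level in the double mutant. The gene wrt-8 passed only through daf-2 and the double mutant together. For ptr-17, 4 libraries of 3 genotypes reached the level, and it would not have passed without the 2 of daf-2. A count over the tested members is thus not one over the family.

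Per length of exon, 4 members stood well above the others. The mean over the 4 genotypes was 199 CPM per kilobase for grd-5, 170 for grd-3, 104.4 for ptc-1 and 78.3 for ptr-2. The next levels per kilobase were 27.3 for grd-14, 22.3 for grl-4, 21.5 for grd-13, 19.6 for ptr-24, 18.6 for grd-10 and 12.6 for ptr-13. In N2 alone the level per kilobase was 153.5 ± 7.84 (SD, n = 3) for grd-5, 146.5 ± 16.6 for grd-3 and 132 ± 93.5 for ptc-1, which overlap within their spread. Below them came ptr-2 at 94.8 ± 42.6, grd-14 at 29.7 ± 4.90 and grl-4 at 29.1 ± 4.50 CPM per kilobase, and the last 2 did not differ beyond their spread. In CPM, grd-5 stood at 81.4, 84.0 and 75.9 in N2, 185, 127 and 75.6 in daf-2, 130, 81.5 and 57.3 in pfd-6, and 117, 108 and 128 in the double mutant, where the genotypes overlapped except that all double mutant libraries lay above N2. Among the Warthog genes wrt-5, which acts in the embryo, was highest, with 8.76 CPM per kilobase over all genotypes.

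**Figure D1:**
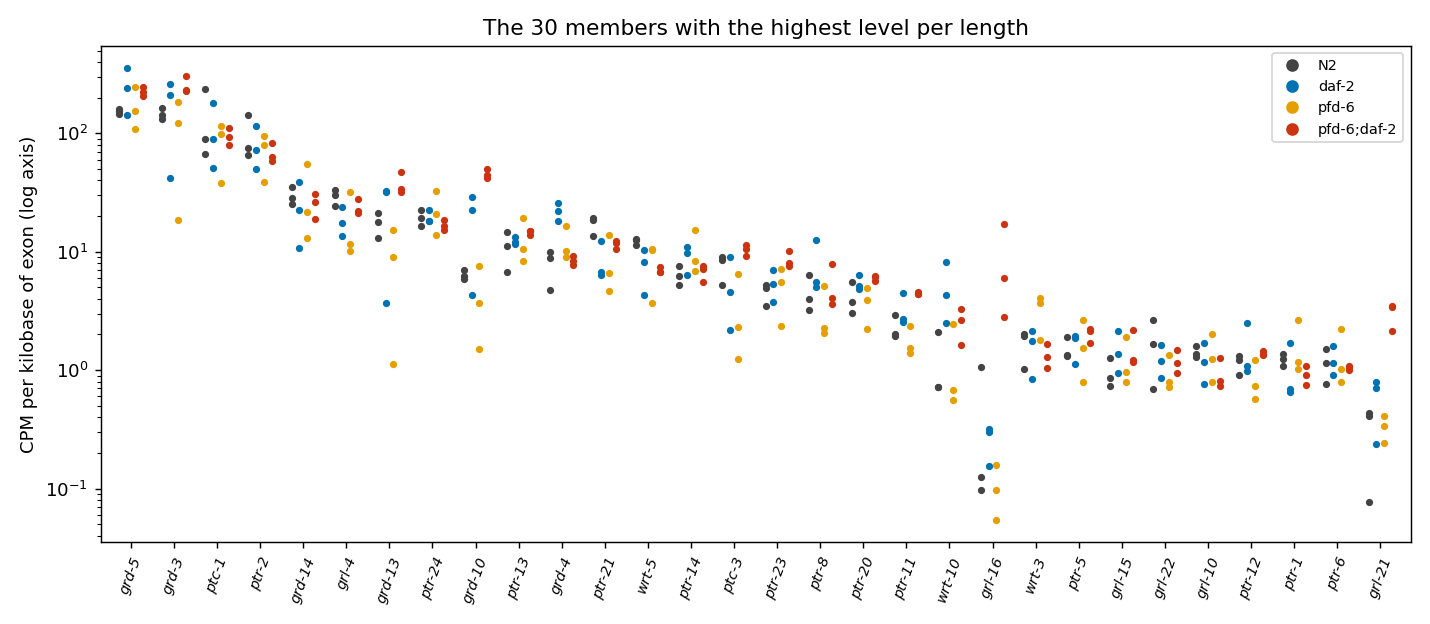
Level per length of the 30 members with the highest mean, in CPM per kilobase of exon on a log axis, with 1 point per library coloured by genotype. The genes grd-5, grd-3, ptc-1 and ptr-2 lie highest. All red points (double mutant) lie above those of the other genotypes for grd-10, ptc-3, ptr-23, grl-16 and, at the right end, grl-21.

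The ligand-like genes are concentrated on chromosome V, which holds 28 of the 58, and chromosome IV, which holds 12. The receptor-like genes are spread differently, with 8 on chromosome II, 7 on chromosome I and 4 on chromosome V. Several ligand-like genes are direct neighbours. On chromosome IV, grd-13, grd-3 and grd-10 follow each other on the plus strand between positions 3438312 and 3441841, with 147 and 601 bases between them. On chromosome X, grd-14 and grd-4 lie between 8500021 and 8502288 with 184 bases between them, and on chromosome II wrt-1 and wrt-10 face each other across 15 bases.

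In the double mutant 9 ligand-like transcripts were called higher than in at least 1 other genotype. That number includes grd-6, grl-21 and wrt-4, tested only through their level in the double mutant. It also includes wrt-8, tested through daf-2 and the double mutant, so it is not set against the receptor-like genes. For 2 of the 9 (grl-16 and grl-17) the call held against each of the other 3 genotypes. No receptor-like transcript passed the test in any comparison of the fit without a replicate block, while ptc-3 and ptr-11 passed against pfd-6 with it. Against daf-2, edgeR's quasi-likelihood test with Benjamini-Hochberg adjustment over all 15090 tested genes called 3 members higher (grd-6, grl-16 and grl-17) and none lower, where 3.11% of all tested genes were called (2.73% higher and 0.384% lower). Against pfd-6 it called 8 members higher (grd-6, grd-10, grl-7, grl-16, grl-17, grl-21, wrt-4 and wrt-6) and none lower, where 3.29% of all tested genes were called (2.29% higher). Against N2 it called 6 members higher (grd-10, grl-16, grl-17, grl-21, wrt-6 and wrt-8) and none lower, where 3.19% of all tested genes were called (2.5% higher). Among the called members, grd-6, grl-21 and wrt-4 entered the test only through their level in the double mutant and wrt-8 through that in daf-2 and the double mutant, so these counts are not read against the share of all genes. With no filter and all 84 members tested, 2, 10 and 6 members were called against daf-2, pfd-6 and N2, without a share of all genes to set beside them. The 3 comparisons share the double mutant libraries, so their counts are not independent of each other. In whole worms, fewer cells of a type and less RNA per cell cannot be told apart, and the same holds for more of either.

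Among the called members with counts in both groups, the largest difference in each comparison belonged to grl-16, a Ground-like gene at chromosome I 572173 to 575120. Its level was 0.208, 0.164 and 1.795 CPM in the N2 libraries, 0.507, 0.258 and 0.536 CPM in daf-2, and 0.0915, 0.265 and 0.165 CPM in pfd-6. The double mutant libraries held 10.15, 4.74 and 28.9 CPM. All 3 double mutant libraries lay above all 9 others, and the third N2 library lay above the other 8. On the log2 scale grl-16 was higher in the double mutant by 5.06 (SE 0.96, adjusted p = 0.0221) against daf-2, by 6.38 (SE 1.04, adjusted p = 0.0101) against pfd-6 and by 4.47 (SE 0.94, adjusted p = 0.0277) against N2.

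The Ground gene grd-6 was tested only because of its level in the double mutant. Its values were 0.0521, 0.131 and 1.17 CPM in N2, 0.237, 0.162 and 0.126 CPM in daf-2, and 0.0305, 0.0756 and 0.0549 CPM in pfd-6, against 2.08, 1.05 and 5.55 CPM in the double mutant. The double mutant libraries lay above all libraries of both single mutants but overlapped with the third N2 library. On the log2 scale grd-6 was higher by 4.01 (SE 0.97, adjusted p = 0.0463) against daf-2 and 5.66 (SE 1.11, adjusted p = 0.0216) against pfd-6. Against N2 it was 2.86 (SE 0.93) and did not pass (adjusted p = 0.125), while it did when the replicate number was a block (3.04, SE 0.75, adjusted p = 0.0399).

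The gene grl-7 encodes a Ground-like protein of the larval epidermis, where PTR-18 is needed to clear it. It had 0 counts in all 3 pfd-6 libraries, and 0.0781, 0 and 0.829 CPM in N2 and 0.541, 0.0646 and 0.442 CPM in daf-2. In the double mutant it stood at 2.15, 0.526 and 1.42 CPM, from 61, 17 and 29 counts. Set against the 3 counts that a group at 0 still allows, the double mutant was at least 43.6-fold higher than pfd-6 (adjusted p = 0.0444, edgeR). The libraries of the double mutant overlapped with those of N2 and of daf-2.

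The Ground-like gene grl-17 differed from these in that its libraries were more even. It stood at 0.495, 0.819 and 0.207 CPM in N2, 0.676, 0.775 and 0.442 CPM in daf-2, 0.335, 0.491 and 0.165 CPM in pfd-6, and 3.35, 3.19 and 1.87 CPM in the double mutant. No library of another genotype reached the lowest of the double mutant. The transcript was higher by a log2 difference of 2.15 (SE 0.53, adjusted p = 0.0497) against daf-2, 3.09 (SE 0.56, adjusted p = 0.0151) against pfd-6 and 2.41 (SE 0.54, adjusted p = 0.0352) against N2. Up to 14.2% of its exon bases overlap a non-coding RNA on the opposite strand, and whether the counting used strand is not given in the sources used here.

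The gene grl-21, whose product has been linked with PTR-24 to lipid storage in the worm, stood at 0.0521, 0.295 and 0.276 CPM in N2, 0.541, 0.162 and 0.473 CPM in daf-2, and 0.274, 0.227 and 0.165 CPM in pfd-6. The double mutant libraries held 2.29, 1.46 and 2.36 CPM, more than every other library. Its log2 difference was 3.17 (SE 0.62, adjusted p = 0.0213) against pfd-6 and 3.35 (SE 0.64, adjusted p = 0.0194) against N2. This gene too was tested only because of its level in the double mutant. Against daf-2 the difference was 2.36 (SE 0.59) with an adjusted p of 0.0511, and 2.38 (SE 0.58, adjusted p = 0.0419) under the replicate block.

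The best covered of the called members was the Ground gene grd-10. It stood at 3.98, 3.73 and 4.42 CPM in N2, 18.5, 14.2 and 2.71 CPM in daf-2, 4.76, 2.34 and 0.960 CPM in pfd-6, and 27.95, 26.4 and 31.4 CPM in the double mutant. The double mutant libraries lay above all others, 2 of the daf-2 libraries lay above all N2 and pfd-6 libraries, and the third daf-2 library, which is 1 of the pair with few ribosomal protein counts, lay below all of N2. The log2 difference was 3.41 (SE 0.67, adjusted p = 0.0216) against pfd-6 and 2.82 (SE 0.65, adjusted p = 0.0389) against N2. Against daf-2 it was 1.27 (SE 0.61) and did not pass (adjusted p = 0.361).

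Among the Warthog genes, wrt-6 was called in 2 comparisons. It stood at 0.417, 0.295 and 0.967 CPM in N2, 1.42, 0.581 and 0.789 CPM in daf-2, 0.305, 0.454 and 0.247 CPM in pfd-6, and 3.81, 1.73 and 2.65 CPM in the double mutant, which was above all others. Its rise came to a log2 difference of 3.02 (SE 0.57, adjusted p = 0.0179) against pfd-6 and 2.35 (SE 0.56, adjusted p = 0.0418) against N2. Against daf-2 it was 1.55 (SE 0.53, adjusted p = 0.166).

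For wrt-4 the N2 libraries were close to each other at 0.339, 0.360 and 0.345 CPM, the pfd-6 libraries stood at 0.122, 0.378 and 0.220 CPM, and the double mutant libraries stood at 1.90, 0.650 and 2.505 CPM. The daf-2 libraries stood at 0.271, 0.258 and 0.883 CPM, so that the highest of them exceeded the lowest of the double mutant. The gene was tested only because of its level in the double mutant. The log2 difference of wrt-4 was 2.80 (SE 0.67, adjusted p = 0.0416) against pfd-6, 1.82 (SE 0.63, adjusted p = 0.173) against daf-2 and 2.25 (SE 0.65, adjusted p = 0.0816) against N2.

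The gene wrt-8 had 0 counts in all 3 N2 libraries and 0, 0 and 2 counts in pfd-6. It stood at 0.0338, 0.0969 and 0.316 CPM in daf-2 and at 0.740, 0.186 and 1.08 CPM in the double mutant. Against the 3 counts that N2 still allows as a group, the double mutant was at least 18.6-fold higher (adjusted p = 0.0377, edgeR). The gene was tested only because of its level in daf-2 and the double mutant. Against pfd-6 the adjusted p was 0.0544 (edgeR), and 0.0193 under the replicate block, which does not pair the libraries of that comparison.

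The single Quahog gene qua-1, which is needed for molting, was not called in the fit without a block. It stood at 0.339, 0.393 and 2.485 CPM in N2, 0.812, 0.484 and 0.820 CPM in daf-2, 0.213, 0.265 and 1.29 CPM in pfd-6, and 2.15, 1.39 and 3.045 CPM in the double mutant. The double mutant libraries lay above those of both single mutants and overlapped with N2. The log2 difference was 1.63 (SE 0.82, adjusted p = 0.386, edgeR) against daf-2 and 1.87 (SE 0.82, adjusted p = 0.228) against pfd-6. Under the replicate block, which does not pair the libraries of that comparison, the latter passed (2.23, SE 0.56, adjusted p = 0.0385).

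**Figure D2:**
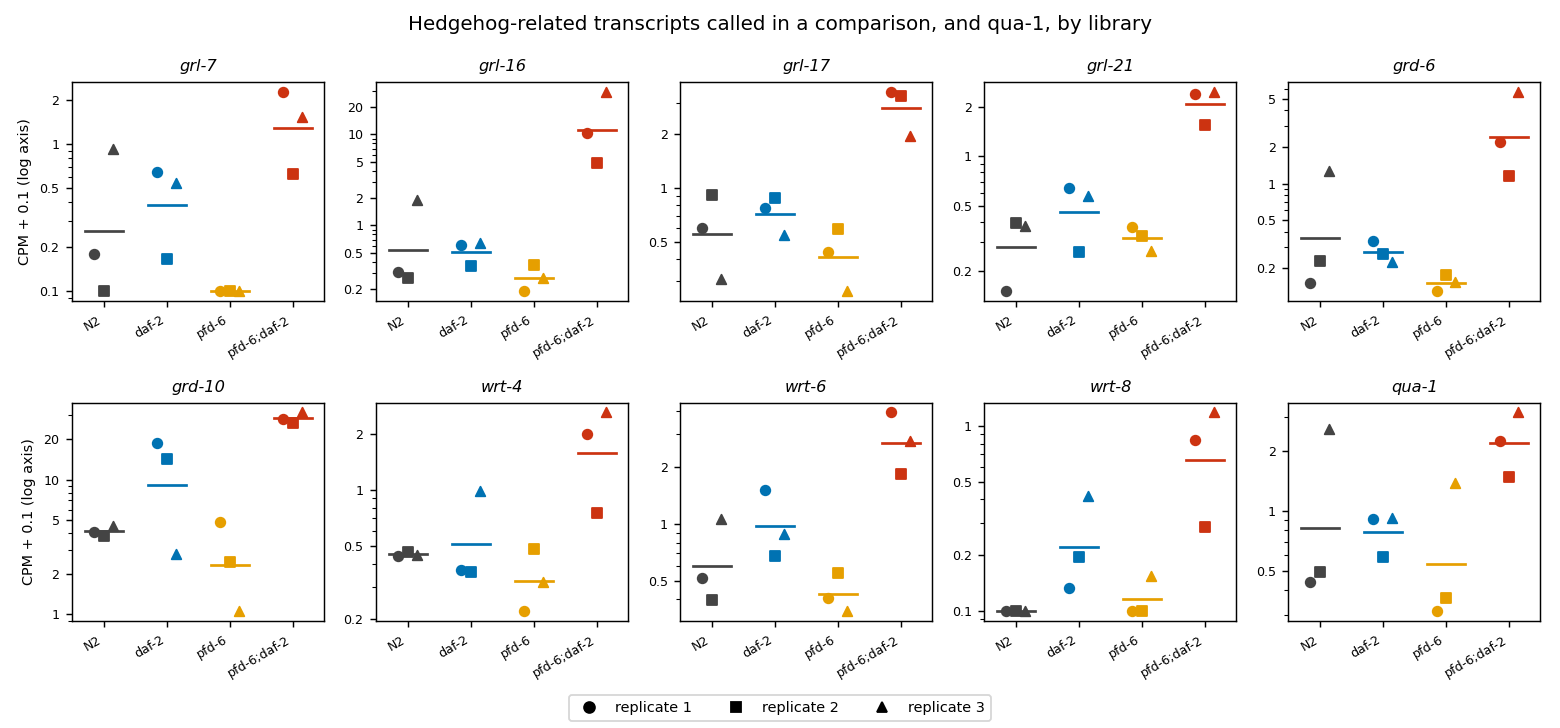
Levels of the 9 called ligand-like members and of qua-1 in every library, as CPM + 0.1 on a log axis, by genotype, with the marker shape giving the replicate and the line the geometric mean. The double mutant libraries lie above all others for grl-16, grl-17, grl-21, grd-10 and wrt-6, and the third N2 library (triangle) is the highest of N2 for grl-7, grl-16, grd-6 and qua-1.

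Some markers of other cell types were also higher in the double mutant, and their part in the differences was not tested. Summed over 16 sperm markers, none of which was at 0 in all libraries, the level was 8.25 to 42.1 CPM in N2, 4.26 to 12.99 CPM in daf-2, 6.62 to 32.5 CPM in pfd-6 and 87.3 to 238 CPM in the double mutant. Within the double mutant the third library was highest and the second lowest for the sperm markers (112, 87.3 and 238 CPM), as it was for grl-16 and grd-6. The third N2 library was the highest of N2 for the sperm markers, grl-16 and grd-6. Within the single mutants the orders differed, except that in daf-2 grd-6 had the same order as the sperm markers. In pfd-6 the sperm markers (32.5, 6.62 and 12.1 CPM) were highest in the first library, where grl-16 and grd-6 were lowest. In daf-2 the sperm markers (12.99, 8.46 and 4.26 CPM) were lowest in the third library, where grl-16 was highest and grd-6 lowest. Of the 15 tested sperm markers 11 were called higher in the double mutant against daf-2, 3 against pfd-6 and none against N2 (edgeR, adjusted p).

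The 18 epidermis and cuticle markers summed to 5417 to 8983 CPM in N2, 696 to 5229 CPM in daf-2, 559 to 6525 CPM in pfd-6 and 9249 to 10520 CPM in the double mutant, with none at 0 throughout. None of them was called against daf-2, 5 were called higher against pfd-6 (col-62, col-7, rol-6, sqt-2 and dpy-13, all cuticle collagens) and 2 against N2 (col-62 and col-7). The collagen col-62 differed most by p, with a log2 difference of 5.37 (SE 0.77, adjusted p = 0.00567, edgeR) against pfd-6. The summed level of 10 muscle markers was 4244 to 10350 CPM in the double mutant, 2729 to 5822 CPM in N2, 1348 to 4693 CPM in daf-2 and 1420 to 5056 CPM in pfd-6, with none called. That of 10 pharynx markers was 35.5, 60.15 and 230 CPM in the double mutant libraries. In the libraries of the other genotypes it was 9.67 to 127 CPM, so that only the third double mutant library lay above them. No marker of the pharynx, glia, neurons, intestine, the germ line with oocytes, or embryos was called in any comparison.

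The calls rested on 3 libraries a genotype, and most ended when 1 was left out. Only grl-16 against pfd-6 passed in all 12 fits with 1 library removed (log2 difference 5.30 to 6.80, adjusted p up to 0.0444, edgeR). The other 16 calls each ended without 3 to 9 of the libraries, while their log2 difference stayed positive, from 1.90 for wrt-6 against N2 up to 6.13 for grl-16 against N2 among those with counts in both groups.

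Against daf-2, the count of 3 members became 0 without daf-2 replicate 1, 2 or 3 and without double mutant replicate 1 or 3. It became 1 without N2 replicate 2 or double mutant replicate 2, and 5 without pfd-6 replicate 3. With both libraries of few ribosomal protein counts left out it was 0. No share of all genes called is given for fits with libraries left out. Their counts, here and in the next paragraph, are not read as results about the family.

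Against pfd-6, the count of 8 became 2 without pfd-6 replicate 1 or double mutant replicate 3, 5 without pfd-6 replicate 3 or double mutant replicate 2, and 1 without double mutant replicate 1. With both libraries of few ribosomal protein counts left out, 7 members passed, which were grd-10, grd-13, grl-16, grl-17, grl-21, wrt-4 and wrt-6. Against N2, the count of 6 became 0 without N2 replicate 1 or 2 or double mutant replicate 1 or 3, 2 without daf-2 replicate 2 and 3 without double mutant replicate 2. With both libraries of few ribosomal protein counts left out, 8 members passed against N2, the 6 named above with grd-13 and wrt-4. Whether more of all genes were called in these fits is not given, so the changes in count show only how calls shift.

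Across all tested members, the median log2 difference was 0.14 against daf-2, 0.55 against pfd-6 and 0.44 against N2, beside -0.07, -0.02 and -0.07 over all tested genes. Among the ligand-like genes it was 0.53, 1.05 and 0.87, and among the receptor-like genes -0.01, 0.29 and 0.27. These medians describe the tested members, some of which were tested only because the double mutant expressed them. The libraries of the double mutant and N2 did not overlap for 22 members that were higher and 8 that were lower in the double mutant, where 18.6% and 17.4% of all tested genes did so. By role these were 13 and 4 of the 32 ligand-like genes and 9 and 4 of the 25 receptor-like genes. Against pfd-6 these counts were 20 and 3, where 14.6% and 13.9% of all tested genes did so, and against daf-2 12 and 2, where 14.4% and 14.2% did so. The members with the lowest log2 difference against N2 were grd-11 (-1.96, SE 0.59, adjusted p = 0.0955), ptr-15 (-1.55, SE 0.72, adjusted p = 0.332) and wrt-5 (-0.81, SE 0.42, adjusted p = 0.397). None of these 3 passed, although their double mutant libraries all lay below those of N2.

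Against pfd-6 the lowest log2 differences were those of grd-11 (-1.27, SE 0.60), wrt-3 (-1.26, SE 0.45) and ptr-15 (-1.01, SE 0.71), with adjusted p of 0.257, 0.1475 and 0.449. Of the exon bases of wrt-3, 41.1% are shared with a pseudogene on the same strand, so its counts may be split or merged. Against daf-2 the lowest were grd-11 (-1.67, SE 0.59, adjusted p = 0.185), grl-2 (-1.64, SE 0.75, adjusted p = 0.333) and grd-4. The gene grl-2 is known from the duct and pore cells of the excretory system, and it stood at 0.778, 1.81 and 0.189 CPM in daf-2 against 0.141, 0.526 and 0.196 CPM in the double mutant, which overlap.

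**Figure D3:**
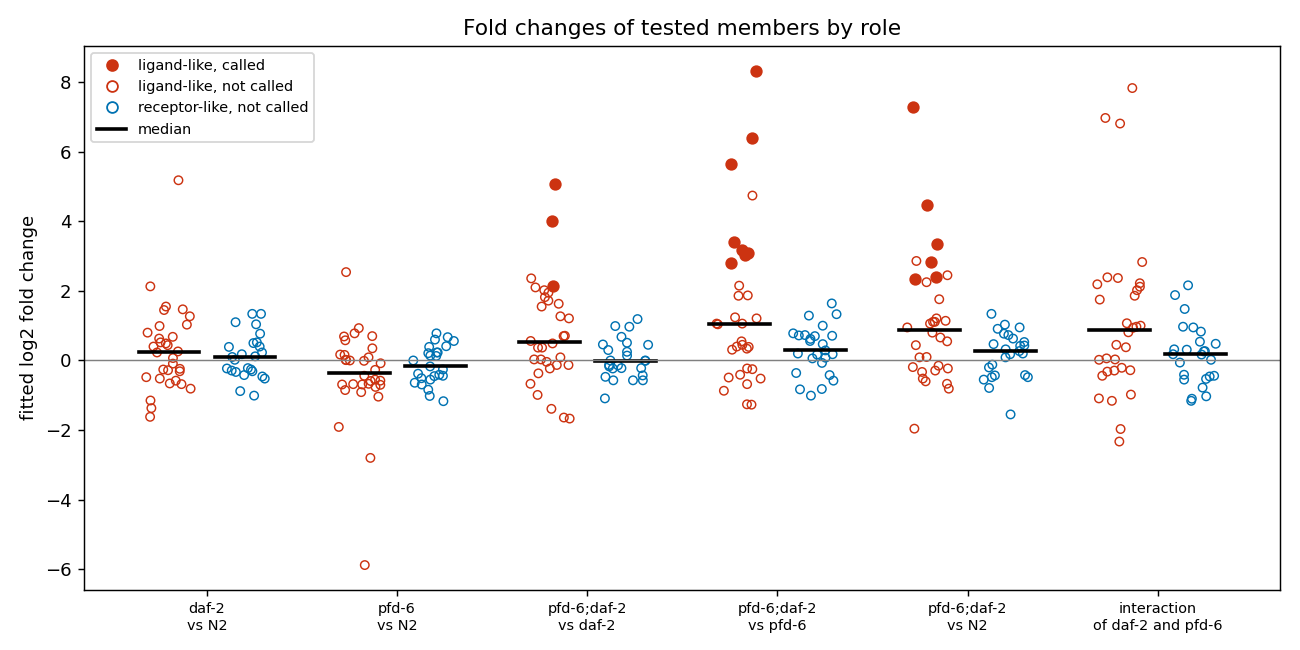
Fitted log2 fold change of each tested member in the 6 comparisons, ligand-like in red and receptor-like in blue, with filled points past an adjusted p of 0.05 and black lines at the medians. All filled points are ligand-like and above 0, in the 3 comparisons of the double mutant, and the fitted values of grl-7 against pfd-6 and wrt-8 against N2 rest on groups at 0 and are no measured fold.

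The gene grd-4, a neighbour of grd-14, ran the other way: it was highest in the daf-2 single mutant. It stood at 7.63, 6.81 and 3.66 CPM in N2, 19.65, 14.05 and 16.85 CPM in daf-2, 12.5, 7.71 and 6.94 CPM in pfd-6, and 5.89, 6.38 and 7.07 CPM in the double mutant. All daf-2 libraries lay above all libraries of the other genotypes. The log2 difference between daf-2 and N2 was 1.47 (SE 0.35, adjusted p = 0.0766), and that between the double mutant and daf-2 was -1.39 (SE 0.35, adjusted p = 0.0534). Neither passed in the fit without a block, and both passed under the replicate block, at 1.5 (SE 0.31, adjusted p = 0.0437) and -1.36 (SE 0.31, adjusted p = 0.0325).

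Between daf-2 and N2 edgeR called no member, where 0.934% of all tested genes were called (0.716% higher and 0.219% lower). At an unadjusted p under 0.05 (edgeR) there were 8 of the 57 tested members, beside 1518 of all 15090 tested genes. DESeq2 called grd-4 alone. The highest differences after wrt-8 were those of wrt-10 and grd-10. The gene wrt-10 encodes a Warthog protein that acts with PTC-1 and PTR-2 in the decline of reproduction with age. It stood at 0.807, 0.819 and 2.35 CPM in N2, 2.84, 4.84 and 9.24 CPM in daf-2, 0.762, 2.76 and 0.631 CPM in pfd-6, and 1.83, 3.003 and 3.68 CPM in the double mutant. The daf-2 libraries lay above those of N2, with a log2 difference of 2.13 (SE 0.68) that did not pass (adjusted p = 0.231).

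The Warthog gene wrt-8 was at least 4.135-fold higher in daf-2 than in N2, where it had no count, with an adjusted p of 0.305. For grd-10 the log2 difference between daf-2 and N2 was 1.55 (SE 0.63, adjusted p = 0.416). With both libraries of few ribosomal protein counts left out, grd-10 passed, at 2.03 (adjusted p = 0.017, edgeR). The lowest differences were those of grd-1 (-1.62, SE 1.17), grl-1 (-1.37, SE 0.57) and grd-6 (-1.15, SE 1.00), with adjusted p of 0.688, 0.425 and 0.734. The value of grd-6 rested on the third N2 library and became 0.89 without it. The libraries of daf-2 and N2 did not overlap for 5 members higher and 5 lower in daf-2, where 10.6% and 7.66% of all tested genes did so.

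Between pfd-6 and N2 edgeR called no member either, where 0.0994% of all tested genes were called (0.0928% higher and 0.00663% lower). At an unadjusted p under 0.05 (edgeR) there were 3 of the 57 tested members (grd-6, grl-7 and ptr-21), beside 1045 of all 15090 tested genes. DESeq2 called no member. The libraries did not overlap for 1 member higher and 2 lower in pfd-6, where 4.71% and 2.75% of all tested genes did so. The median log2 difference was -0.26 over the tested members, -0.35 over the ligand-like genes, -0.17 over the receptor-like genes and 0.04 over all tested genes. The gene grl-7 was at least 9.64-fold higher in N2 than in pfd-6, where it had no count, with an adjusted p of 0.6145. Most of the N2 counts of grl-7 came from 1 library (3, 0 and 12 counts). The genes grd-6 (-2.80, SE 1.15) and grl-16 (-1.91, SE 0.98) were the next lowest, and wrt-3 (0.93, SE 0.45) and ptr-17 (0.78, SE 0.76) were highest after wrt-8, all with an adjusted p of 0.6145 or more.

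Whether the difference between pfd-6 mutant and pfd-6 wild-type worms depended on daf-2 was tested as an interaction with edgeR. It called no member, where 0.139% of all tested genes were called (0.0265% higher and 0.113% lower). An unadjusted p under 0.05 was reached by 13 of the 57 tested members, beside 2627 of all 15090 tested genes. The smallest adjusted p was that of grl-16, 0.0835, with an interaction of 6.97 on the log2 scale (SE 1.35). Next were grd-6 (6.81, SE 1.49, adjusted p = 0.113) and grd-4 (-1.97, SE 0.49, adjusted p = 0.140), and grl-17 had 2.83 (SE 0.77, adjusted p = 0.155). DESeq2 called 5 members in the same interaction, with grd-6, grl-7, grl-16 and grl-17 positive and grd-4 negative. The share of all genes that DESeq2 called is not given. So the main edgeR fit did not show that the effect of pfd-6 differed between the backgrounds for any member, while edgeR with no filter called grl-16. The lowest remaining values of the main fit were grl-2 (-2.33, SE 1.07) and ptr-10 (-1.16, SE 0.79).

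On the receptor side, ptc-1 was among the most abundant members and its libraries spread widely within each genotype. It stood at 337, 458.5 and 1213 CPM in N2, 261, 452 and 908 CPM in daf-2, 192, 588 and 505 CPM in pfd-6, and 476, 407 and 562 CPM in the double mutant. Its log2 difference lay between -0.64 and 0.17 in the 5 comparisons of genotypes, each with an SE of 0.60, and all genotypes overlapped. The gene ptr-2 varied with it across libraries, at 192, 217 and 418 CPM in N2 and 182, 170 and 239 CPM in the double mutant, and its log2 difference lay between -0.48 and -0.07 (SE 0.44).

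The other Patched homologue, ptc-3, followed another order. It stood at 23.2, 37.8 and 39.8 CPM in N2, 20.4, 40.1 and 9.81 CPM in daf-2, 10.4, 28.95 and 5.49 CPM in pfd-6, and 41.03, 47.3 and 51.1 CPM in the double mutant. The double mutant lay above all other libraries, and the low values of daf-2 and pfd-6 included the pair of libraries with few ribosomal protein counts. Its log2 difference of 1.64 (SE 0.59, adjusted p = 0.146, edgeR) against pfd-6 did not pass without a block. Under the replicate block, which does not pair the libraries of that comparison, it passed (1.93, SE 0.49, adjusted p = 0.0394). Neither 0.99 (SE 0.58, adjusted p = 0.4745) against daf-2 nor 0.47 (SE 0.57, adjusted p = 0.781) against N2 passed.

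Among the ptr genes, ptr-11 came closest to a call. It stood at 5.496, 8.22 and 5.66 CPM in N2, 7.54, 12.6 and 7.22 CPM in daf-2, 3.90, 6.615 and 4.36 CPM in pfd-6, and 12.3, 12.8 and 12.4 CPM in the double mutant. Its double mutant libraries were close to each other and above all of N2 and pfd-6, and the second daf-2 library lay among them. Against pfd-6 its log2 difference was 1.33 (SE 0.34, adjusted p = 0.0519, edgeR), and 1.38 (SE 0.25, adjusted p = 0.0138) under the replicate block. Against N2 it was 0.95 (SE 0.33, adjusted p = 0.160), and 0.99 (SE 0.25, adjusted p = 0.0417) under the block. Both differences passed only with the block, which does not pair the libraries of pfd-6 with those of the double mutant.

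The gene ptr-18, which is needed in the larval epidermis, stood at 1.93, 2.325 and 1.795 CPM in N2, 0.744, 1.00 and 1.55 CPM in daf-2, 0.793, 1.51 and 1.45 CPM in pfd-6, and 2.68, 1.455 and 3.44 CPM in the double mutant. Both single mutants lay below N2 without overlap, and the double mutant overlapped with all others. Its log2 difference was -0.88 (SE 0.44, adjusted p = 0.565) between daf-2 and N2 and 1.19 (SE 0.45, adjusted p = 0.215) between the double mutant and daf-2. The gene ptr-4, which shapes the apical matrix of the epidermis, ranged from 0.226 to 4.70 CPM within daf-2 alone, and its log2 differences had an SE of 0.95 to 1.00 in the 5 comparisons of genotypes. The abundant ptr-24 and ptr-13 had log2 differences between -0.42 and 0.43 (SE 0.30 and 0.34).

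**Figure D4:**
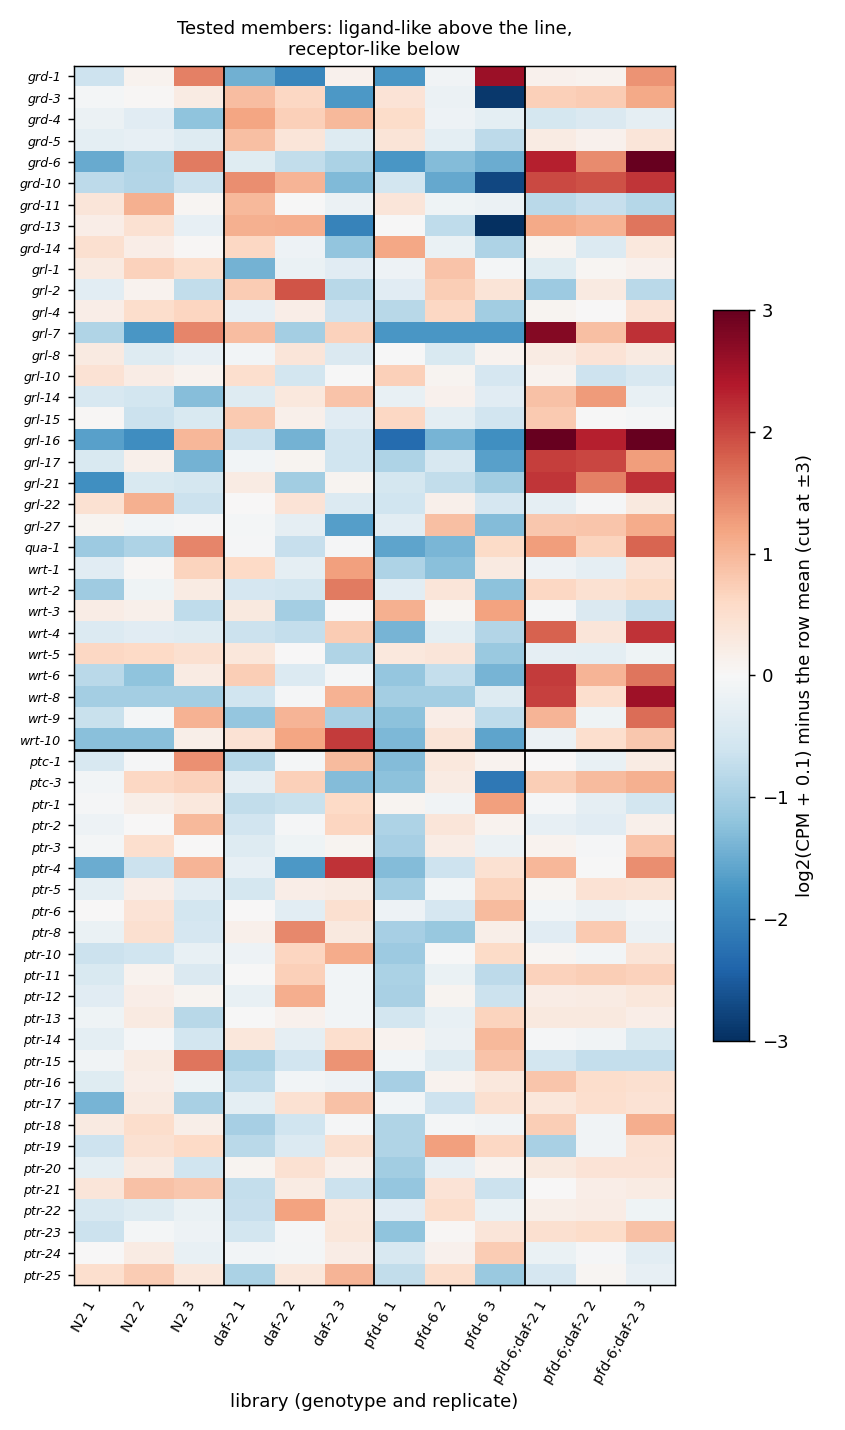
Level of the 57 tested members in each library as log2(CPM + 0.1) minus the mean of the row, red above and blue below it, with ligand-like genes above the horizontal line and receptor-like genes below. The 3 double mutant columns are red for grd-6, grd-10, grl-7, grl-16, grl-17, grl-21, wrt-6 and wrt-8, and the third daf-2 and pfd-6 columns are blue for grd-3, grd-10, grd-13 and ptc-3.

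Summed over the ligand-like genes, the third libraries of daf-2 and pfd-6 held 176 and 121.5 CPM, against 249.5 to 522 CPM in the other 10 libraries. Most of that gap lay in the grd genes, which summed to 134.3 and 91.15 CPM there and to 196.6 to 449.2 CPM elsewhere, while the wrt genes summed to 22.71 CPM in the third daf-2 library, the highest of the 12. The log2 ratio of the third library to the mean of the other 2 had a median of -0.36 in daf-2 and -0.44 in pfd-6 over the tested ligand-like genes, against 0.44 and 0.69 over the receptor-like genes and -0.08 and -0.02 over all tested genes. On that scale 18 of the 32 ligand-like and 8 of the 25 receptor-like genes were below 0 in daf-2, 23 and 6 in pfd-6, 16 and 13 in N2, and 9 and 10 in the double mutant. No test of a difference between the roles was made, and the receptor-like ptc-3 stood at -1.62 in daf-2 and -1.82 in pfd-6. In N2 the medians were 0 and -0.06, and in the double mutant 0.29 and 0.06.

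The 3 adjacent genes grd-13, grd-3 and grd-10 on chromosome IV were each lowest in the third library within daf-2 and within pfd-6 and highest in the third library within the double mutant, while within N2 grd-13 was lowest and the other two were highest in the third. The gene grd-3 stood at 91.9, 97.8 and 114 CPM in N2, 182, 146.5 and 28.8 CPM in daf-2, 126, 84.9 and 12.7 CPM in pfd-6, and 157, 161 and 210.1 CPM in the double mutant. The gene grd-13 stood at 10.8, 12.9 and 7.94 CPM in N2, 19.65, 20.05 and 2.24 CPM in daf-2, 9.30, 5.48 and 0.686 CPM in pfd-6, and 20.6, 19.5 and 28.6 CPM in the double mutant. In both, the third daf-2 and the third pfd-6 library were the lowest of all 12, and the sum of the epidermis and cuticle markers was lowest in the same 2. The log2 difference between the double mutant and pfd-6 was 1.24 (SE 0.70, adjusted p = 0.340) for grd-3 and 2.15 (SE 0.82, adjusted p = 0.169) for grd-13, so that of the 3 neighbours grd-10 alone was called with all libraries in. The X-linked neighbours did not share an order: grd-14 stood at 20.9, 17.1 and 15.2 CPM in N2 and 15.8, 11.2 and 18.5 CPM in the double mutant, with no genotype apart from the others, while grd-4 was highest in daf-2.

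**Figure D5:**
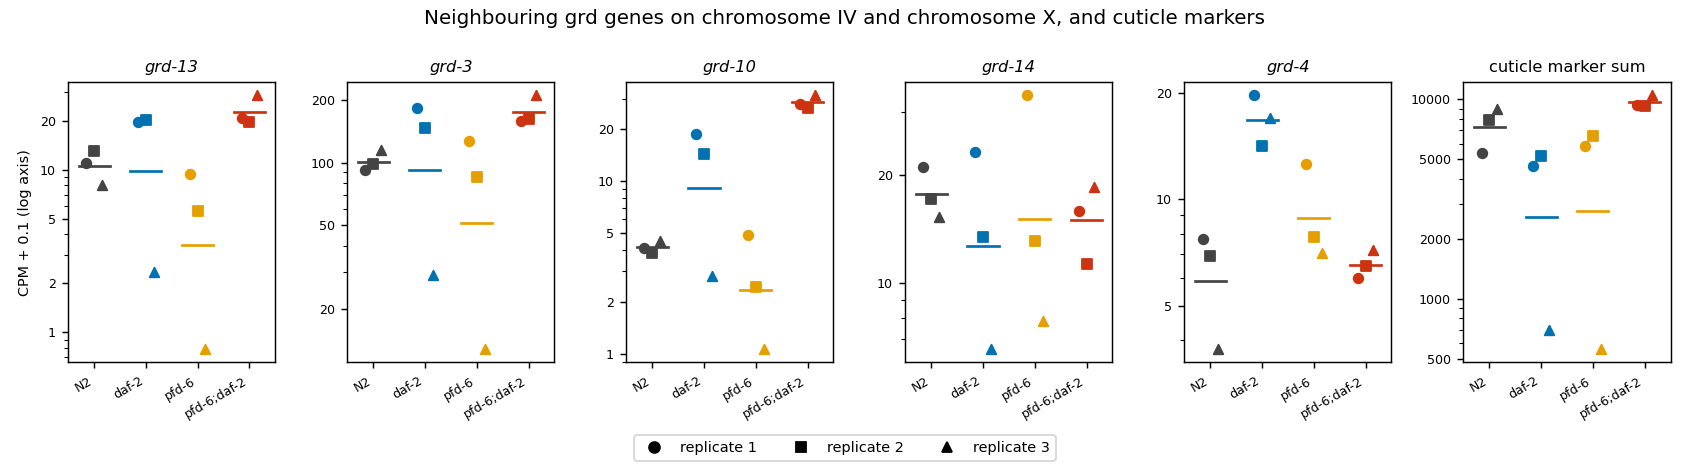
Levels of the adjacent genes grd-13, grd-3 and grd-10 on chromosome IV and grd-14 and grd-4 on chromosome X in every library, beside the sum of the 18 epidermis and cuticle markers, as CPM + 0.1 on log axes with lines at the geometric mean. The third libraries (triangles) of daf-2 and pfd-6 lie lowest for grd-13, grd-3 and the marker sum, and grd-4 lies highest in all 3 daf-2 libraries.

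Genes that work beside the family were not called. The list of 12 genes for Hedgehog-type accessory and sterol-sensing proteins held, among others, che-14 (a Dispatched-like protein of epithelia), daf-6 (a Patched-related protein of glia), the NPC1 homologues ncr-1 and ncr-2, and tra-1, the worm's Gli-family transcription factor of sex determination. All 12 were tested and none passed in any of the 6 comparisons. The lowest p against daf-2 was that of tra-1, which stood at a mean of 53.2 CPM in the double mutant and 25.2 CPM in daf-2 (log2 difference 1.08, SE 0.49, adjusted p = 0.319). Against pfd-6 it was that of hog-1 (-1.25, SE 0.45, adjusted p = 0.149).

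Of 14 transcription factors of the epidermis and the molting cycle none passed either. The smallest p among them was that of grh-1, the worm's Grainyhead factor, with means of 4.96 CPM in the double mutant and 1.498 CPM in pfd-6 (log2 difference 1.73, SE 0.46, adjusted p = 0.0606). The factor bed-3, which acts in the molting cycle, had a log2 difference of 1.37 between daf-2 and N2 (SE 0.50, adjusted p = 0.335). Of 21 molting and apical matrix genes 19 were tested and none passed in any comparison. Their median log2 difference was -0.22 against daf-2, 0.58 against pfd-6 and -0.16 against N2.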

How the data were processed

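The authors deposited 1 table of expected counts per library, estimated per gene. Per the submitters' processing notes, the tools named, without their roles, were RSEM 1.3.1, HISAT2 2.0.5, limma 3.24.15, StringTie 1.3.3 and R 3.1.3, with the builds ce11 and WBcel235. Library preparation was paired-end with 3 biological repeats, of which the last set was sequenced later, per the labels' protocols. The labels do not say which replicate that was.

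Gene IDs were matched to symbols and positions in the Ensembl 115 annotation of WBcel235. Of the 46904 IDs, 46817 were found there. Expected counts were rounded and genes were filtered with filterByExpr (minimum count 10, by genotype), which left 15090. They were scaled by TMM and fitted with edgeR 4.0.16 in R 4.3.3 over all 12 libraries by genotype. CPM values use the TMM-scaled library sizes. Quasi-likelihood F tests were adjusted by Benjamini-Hochberg over all tested genes at 0.05, and SE is the log2 difference divided by the square root of F. The scripts were tested on simulated data. Alternatives were RLE scaling, no filter, DESeq2 1.42.0, limma-voom (limma 3.58.1), the compared groups alone, a replicate block, subsets of libraries and an adjusted p of 0.01. Limits for groups at 0 use 3 counts over the group and cover counting error only.

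Libraries with the same number deviated together for N2 with daf-2 (correlations 0.453, 0.271 and 0.310), for the double mutant with daf-2 (0.315, 0.211 and 0.137) and for it with N2 (0.330, 0.368 and 0.501), all over 0.1. Blocked values stand beside a result where they change its call. The correlations did not all exceed 0.1 for N2 with pfd-6 (0.345, 0.0344 and 0.000163) or for the double mutant with pfd-6 (0.299, 0.0494 and 0.0195). They were highest for daf-2 with pfd-6 (0.749, 0.655 and 0.704), which were not compared directly. Replicates of each genotype differed by more than sampling noise (chi-square per degree of freedom 21.7 or more).

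Members and lists were chosen with earlier results of these data known. Members are named if called in a comparison, among the 3 highest or lowest log2 differences of one, or among the 3 highest per length of their name group. Of other lists, called genes and up to 3 others by smallest p could be named. Values of grd-13, ptr-4, ptr-11 and ptr-18 are outside this rule, as are the mentions of ptr-21 and ptr-23, and were chosen after their values were seen. Sequences and promoter motifs were not analysed here.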

Additional observations from a re-analysis of the deposited data

How the results depend on the processing

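Of the values for called members in single comparisons, 233 kept their side of the threshold and 105 lost it over the alternatives, and of those not called 524 kept it, 21 passed and 3 changed sign. Those 3 were grd-6 between daf-2 and N2, at -1.15, which became 0.00 with limma-voom, 1.14 with replicates 1 and 2 alone and 0.89 without N2 replicate 3, with a range of -1.74 to 0.89 over the fits that leave out 1 library.

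Between daf-2 and N2 the count of 0 became 1 with DESeq2 (grd-4), with the replicate block (grd-4), and with the third libraries of daf-2 and pfd-6 left out together (grd-10). Against daf-2 the double mutant's count of 3 became 5 with DESeq2, with the compared groups alone and with the replicate block, which added grl-21 and, as lower, grd-4 in each. It became 0 with that pair left out. Against N2 the count of 6 became 12 with the compared groups alone, 11 higher and 1 lower. At an adjusted p of 0.01, the counts against daf-2, pfd-6 and N2 were all 0. In the interaction, 1 member (grl-16) was called with no filter and 5 with DESeq2, and the median of 0.31 became 0.67 with limma-voom and 0.68 with replicates 1 and 2 alone. The cause of these changes was not tested.

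With the replicate block, 12 members were called against pfd-6 and 8 against N2, and 0 between pfd-6 and N2 and in the interaction. Those added against pfd-6 were ptc-3, ptr-11, qua-1 and wrt-8. The replicate numbers of the comparison with pfd-6 do not pair its libraries. With all 84 members in and no filter, 2, 10 and 6 were called against daf-2, pfd-6 and N2. The share of all tested genes called is given here only for the main fit. Counts from the alternatives and from fits with libraries left out thus show how calls shift, and are not read as results about the family.

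Leaving out 1 library gave counts from 0 to 5 against daf-2, 1 to 10 against pfd-6 and 0 to 7 against N2. The medians ranged from 0.07 to 0.36, 0.35 to 0.75 and 0.25 to 0.53 in these, from 0.01 to 0.24 between daf-2 and N2, from -0.41 to -0.03 between pfd-6 and N2 and from 0.13 to 0.64 in the interaction. Many called members rest on few reads (3 to 26 counts of grl-16 in a library outside the double mutant), which limits what depth can show for the lower ones.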
